A study of Homo sapiens with 4 samples.

Results

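Transcript levels of the matrix metalloproteinase (MMP), ADAMTS, ADAMTS-like (ADAMTSL) and TIMP genes were measured by polyA-selected RNA sequencing. The members were taken by gene symbol from the deposited count table and came to 52 of its 25690 rows, made up of 24 MMP, 19 ADAMTS, 5 ADAMTSL and 4 TIMP genes. The samples were 2 libraries with the genotype label TFAP2A knockout (KO) and 2 wild-type (WT) libraries, all from H9 human embryonic stem cells at day 7. Non-neural ectoderm, as the series calls these cells, is the early tissue that gives rise to epidermis, placodes and neural crest. The sources used here give no clone, guide or differentiation protocol. They do not say whether replicate libraries are separate cultures, so p-values measure only the spread between these libraries, and that spread may be technical.

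MMPs are zinc-dependent endopeptidases that are made as inactive proenzymes and cut collagens, laminins, fibronectin and many cell-surface proteins. ADAMTS enzymes are secreted relatives with thrombospondin repeats that anchor them in the matrix, and ADAMTSL proteins share those repeats but have no protease domain. TIMPs are small secreted proteins that occupy the active site of these enzymes. In the embryo this set takes part in the turnover of matrix around epithelia and in the release of neural crest cells.

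The libraries held 19305868 and 21797850 counts in KO and 17945210 and 17838204 counts in WT. TFAP2A, the gene in the genotype label, was at 133 and 121 CPM (counts per 1000000 of the library, after TMM scaling) in KO libraries, against 171 and 198 CPM in WT libraries (log2 fold change -0.54, SE 0.07, adjusted p = 0.000125). It was therefore lower but far from absent. The titles of the KO libraries name TFAP2C instead, which stood at 8.89 and 5.77 CPM in KO against 27.5 and 30.6 CPM in WT. Directions below are those of the libraries labelled knockout. The epithelial markers KRT8, KRT18, CDH1, EPCAM, GRHL2 and TP63 were detected in all 4 libraries, with KRT8 at 1049 and 1061 CPM in KO against 1293 and 1335 CPM in WT.

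Among the members, 34 had enough counts to test and 18 did not. Of the 34, 9 were higher in KO, 15 were lower and 10 did not pass at an adjusted p under 0.05 (edgeR's quasi-likelihood test, Benjamini-Hochberg adjusted over all 15643 genes tested). Among all genes tested, 21.9% were higher and 22.3% lower, so 44.2% were called, against 70.6% of the members tested. The median log2 fold change was -0.12 over the members tested and 0.00 over all genes tested. The median size of the log2 fold change, whatever its sign, was 0.57 over the members and 0.25 over all genes. By family, of 3 TIMP genes tested, 2 rose and 0 fell. Of 11 MMP genes, 1 rose and 6 fell, and of 17 ADAMTS genes, 6 rose and 8 fell. The families' directions were not compared by a test, and 4 of the 6 MMP falls (MMP2, MMP17, MMP24 and MMP25) lost their call in at least 1 of 11 alternatives. In bulk samples such as these, fewer cells of a type and less RNA per cell cannot be told apart.

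**Figure D1:**
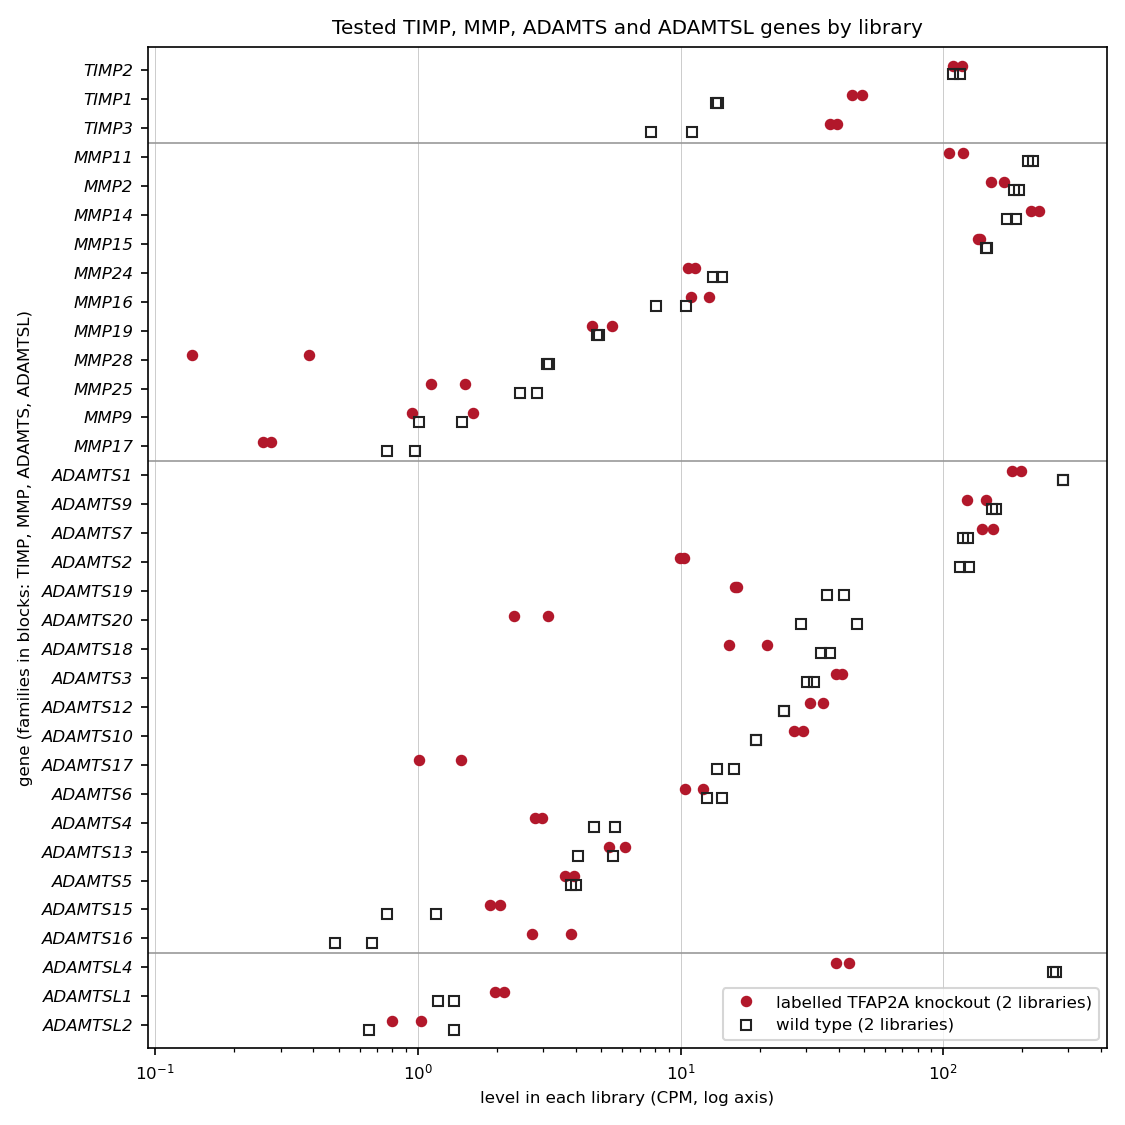
Level of each tested gene in each library, in CPM on a log axis, with filled red circles for the 2 KO libraries above open squares for the 2 WT libraries. TIMP1 and TIMP3 sit to the right of their WT squares, whereas ADAMTS2, ADAMTS17, ADAMTS20, MMP28 and ADAMTSL4 sit far to the left of theirs.

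TIMP1 and TIMP3 rose together while TIMP2 did not pass. TIMP1 (chromosome X, 47441690 to 47446190, plus strand, hg19) encodes a secreted inhibitor of most soluble MMPs. It was at 44.9 and 48.97 CPM in KO libraries and 13.9 and 13.6 CPM in WT libraries. Both KO libraries were thus above both WT libraries, at 3.41 times their mean (log2 fold change 1.77, SE 0.09, adjusted p = 1.02e-09). TIMP3 (chromosome 22, 33196802 to 33259028, plus strand, hg19) encodes the inhibitor that binds to the matrix and acts on ADAMTS and ADAM enzymes as well as MMPs. It was at 37.2 and 39.3 CPM in KO libraries and 11.04 and 7.71 CPM in WT libraries, a ratio of means of 4.08 (log2 fold change 2.02, SE 0.13, adjusted p = 2.21e-07). The WT libraries differed more from each other than the KO libraries did, but the groups did not overlap.

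TIMP2, which inhibits MMPs and also helps MMP14 to activate the MMP2 proenzyme, was at 109 and 118 CPM in KO and 116 and 109 CPM in WT. The groups overlapped (log2 fold change 0.02, SE 0.06, adjusted p = 0.851). TIMP4 had 6 and 2.5 counts in KO and 0 counts in both WT libraries and was not tested. Counted per kilobase of transcript, TIMP1 reached 41.02 and 44.7 CPM per kb in KO, above TIMP2 at 29.9 and 32.3. In WT the order was the other way round, with TIMP1 at 12.7 and 12.4 CPM per kb and TIMP2 at 31.7 and 29.8.

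The TIMP1, TIMP3 and TIMP4 genes each lie inside a synapsin gene that runs on the opposite strand. SYN1, which holds TIMP1, was at 5.51 and 5.52 CPM in KO against 4.56 and 5.19 CPM in WT and did not pass (adjusted p = 0.454). SYN3, which holds TIMP3, had 5.5 and 9 counts in KO against 6 and 3.5 in WT. In counts, SYN1 had 107.5 and 120.5 beside 877 and 1068.5 of TIMP1 in KO, and 81.5 and 91.5 beside 249 and 240 of TIMP1 in WT. SYN2, which holds TIMP4, had 28 and 41 counts in KO against 18.5 and 17.5 in WT, more than TIMP4 itself. The sources used here do not say whether strand was used in counting, so the few TIMP4 counts cannot be assigned with certainty.

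The promoters of TIMP3 and TIMP1 differed in matches to GCCNNNGGC, 1 form of the letters bound by AP-2 factors, the family that TFAP2A belongs to. They are shown with the promoters of ADAMTSL4 and ADAMTS2, the genes with the highest WT levels among the members with log2 fold changes below -1. Each sequence is the 250 bases before the RefSeq gene start (GRCh38.p14), 5′ to 3′ on the strand of the gene, with matches to GCCNNNGGC (AP-2) or TGANTCA (AP-1) in capitals. Both motifs read the same on either strand, and no match of one overlapped the other. The TIMP3 window (chr22:32801455-32801704, plus strand) held 3 AP-2 matches, which start 209, 141 and 61 bases before the gene. The windows of TIMP1 (chrX:47582186-47582435, plus strand), ADAMTSL4 (chr1:150549158-150549407, plus strand) and ADAMTS2 (chr5:179345462-179345711, minus strand) held 0 matches to either motif.
TIMP3: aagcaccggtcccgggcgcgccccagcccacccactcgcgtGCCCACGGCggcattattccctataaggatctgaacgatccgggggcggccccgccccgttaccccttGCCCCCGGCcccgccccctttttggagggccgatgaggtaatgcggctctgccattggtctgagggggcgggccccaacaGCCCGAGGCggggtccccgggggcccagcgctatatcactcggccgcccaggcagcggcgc
TIMP1: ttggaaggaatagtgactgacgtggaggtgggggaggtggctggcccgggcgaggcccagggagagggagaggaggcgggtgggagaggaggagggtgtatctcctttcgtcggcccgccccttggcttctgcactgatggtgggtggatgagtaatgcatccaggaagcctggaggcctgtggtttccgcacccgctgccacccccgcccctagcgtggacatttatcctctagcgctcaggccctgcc
ADAMTSL4: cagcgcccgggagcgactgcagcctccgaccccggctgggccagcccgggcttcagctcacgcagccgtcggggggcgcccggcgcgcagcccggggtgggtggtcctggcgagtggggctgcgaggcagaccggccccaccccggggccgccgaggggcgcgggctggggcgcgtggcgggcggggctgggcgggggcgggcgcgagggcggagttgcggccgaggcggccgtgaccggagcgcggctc
ADAMTS2: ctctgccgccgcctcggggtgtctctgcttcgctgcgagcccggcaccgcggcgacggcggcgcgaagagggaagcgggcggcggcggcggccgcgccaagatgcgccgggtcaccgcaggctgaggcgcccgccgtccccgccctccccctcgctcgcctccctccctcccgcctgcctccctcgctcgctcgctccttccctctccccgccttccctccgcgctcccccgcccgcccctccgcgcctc
RefSeq windows were found for 32 of the 52 members, and 12 of them (37.5%) held the AP-2 letters, against 19.7% of 27303 windows of this length. The letters are rich in G and C, and so were the windows of the members, with a median GC content of 68.8% against 58% over all windows. Whether GC content bears on the share of matches was not tested. Among members that rose, 3 of 7 windows held the AP-2 letters (TIMP3, ADAMTS7 and ADAMTS10), and among those that fell 1 of 8 did (MMP24). So did 2 of 5 windows of members that were tested and did not pass, and 6 of 12 of members not tested. Median GC content was 72.4% in the windows of members that rose and 73.8% in those of members that fell. It was 61.2% for members that did not pass and 50.8% for members not tested. The AP-1 letters were in 4 of the 32 windows (12.5%, against 6.6% of all windows), those of MMP7, MMP10, MMP20 and ADAMTS12. A match of letters is a description of the window and does not show binding, and the lack of a match does not show its absence.

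The secreted MMPs that were expressed were lower or did not pass. MMP11, or stromelysin 3, is a furin-activated enzyme of tissue remodelling. It had the highest level per kilobase of all members in WT (95.7 and 91.9 CPM per kb). It was at 119 and 105 CPM in KO libraries and 219 and 211 CPM in WT libraries, so it fell to 0.522 times WT (log2 fold change -0.94, SE 0.06, adjusted p = 3.61e-08). MMP28, or epilysin, another furin-activated MMP, is known from keratinocytes and testis. It was at 0.384 and 0.137 CPM in KO and 3.16 and 3.09 CPM in WT (log2 fold change -3.51, SE 0.39, adjusted p = 4.52e-06). The KO values rest on 7.5 and 3 counts, and the log2 fold change was -4.43 without KO replicate 1 and -2.89 without KO replicate 2.

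The gelatinases cut denatured collagen and basement membrane collagen IV. MMP2 was at 152 and 170 CPM in KO libraries and 194 and 187 CPM in WT libraries, 1.18-fold lower (log2 fold change -0.24 with SE 0.06, adjusted p = 0.00412). That call was lost without KO replicate 1 (adjusted p = 0.0576) and without WT replicate 1 (0.0528). MMP9, the gelatinase known from leukocytes and trophoblast, was low in every library, at 0.947 and 1.63 CPM in KO and 1.01 and 1.47 CPM in WT (adjusted p = 0.894). MMP19 was at 4.58 and 5.48 CPM in KO and 4.81 and 4.90 CPM in WT and did not pass either (adjusted p = 0.798).

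The membrane-type MMPs, which work at the cell surface, went both ways. Of 4 with a transmembrane segment, 1 rose, 1 fell and 2 did not pass, and both with a lipid (GPI) anchor fell. The shares over all genes tested were 21.9% higher and 22.3% lower. MMP14, the main activator of MMP2 and a collagenase of migrating cells, was at 216 and 232 CPM in KO and 190 and 176 CPM in WT. Its rise was small, 1.22 times WT, but the groups did not overlap (log2 fold change 0.29, SE 0.06, adjusted p = 0.000757). MMP15 was at 136 and 138 CPM in KO and 146 CPM in both WT libraries (adjusted p = 0.165), and MMP16 was at 12.8 and 10.98 CPM in KO and 8.08 and 10.5 CPM in WT (adjusted p = 0.0704). MMP16 did pass without the filter on low counts (adjusted p = 0.0366) and without WT replicate 2 (0.0213).

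MMP24, known from neurons, was at 11.4 and 10.6 CPM in KO and 14.3 and 13.2 CPM in WT (log2 fold change -0.33, SE 0.12, adjusted p = 0.0427). Leaving out any 1 of the 4 libraries ended that call (adjusted p = 0.071 and 0.172 without KO replicates 1 and 2, 0.195 and 0.0639 without WT replicates 1 and 2), as did DESeq2 (0.243) and the replicate block (0.0616). MMP17 was at 0.256 and 0.275 CPM in KO and 0.979 and 0.766 CPM in WT (log2 fold change -1.74, SE 0.48, adjusted p = 0.0092). MMP25, known from leukocytes, was at 1.51 and 1.12 CPM in KO and 2.85 and 2.44 CPM in WT (log2 fold change -1.01, SE 0.27, adjusted p = 0.00788). The MMP17 call was lost without KO replicate 1 (adjusted p = 0.0649) or 2 (0.0633), without WT replicate 1 (0.0911) and with DESeq2 (0.156). The MMP25 call was lost without KO replicate 2 (0.0849), without WT replicate 1 (0.0709) and with DESeq2 (0.125). Both are low genes, with at most 51 counts in a library.

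Antisense rows that overlap MMP24 and MMP25 were lower as well. MMP24-AS1 was at 34.4 and 33.5 CPM in KO and 49.9 and 50.5 CPM in WT (adjusted p = 1.2e-05), and LOC100507419, on the other strand of MMP25, was at 3.201 and 2.61 CPM in KO and 5.26 and 4.71 CPM in WT (adjusted p = 0.00537). MMP24-AS1 overlaps 669 of the 50266 bases of MMP24, and LOC100507419 overlaps 7246 of the 14043 bases of MMP25. Without strand, reads from these overlaps cannot be told apart. Of the other opposite-strand rows, ADAMTS19-AS1 over ADAMTS19 (adjusted p = 0.00303) and ADAMTSL4-AS1 over ADAMTSL4 (0.000497) were also lower. Rows such as ADAMTS9-AS1 over ADAMTS9 (adjusted p = 0.115) and TMEM198B over MMP19 (0.668) were not called.

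The MMPs best known from inflamed and wounded tissue were at or near 0. On chromosome 11, 9 MMP genes lie side by side between 102391239 and 102826463 (hg19), a stretch of 435.2 kb that holds the interstitial collagenase MMP1, the neutrophil collagenase MMP8, MMP13, the stromelysins MMP3 and MMP10, the matrilysin MMP7, the macrophage elastase MMP12, the enamel enzyme MMP20, and MMP27. Of these, 8 had 0 counts in all 4 libraries, and MMP1 had 0 counts in both KO libraries and 0 and 1.5 in the WT libraries. A count of 0 allows up to 0.154 and 0.137 CPM in the KO libraries and 0.168 and 0.17 CPM in the WT libraries. Low levels below that limit were not detectable at this depth. MMP26 had 0 counts in both KO libraries and 0 and 1 in WT, and MMP21, a gene of left-right patterning, had 0.5 and 0 counts in KO and 2 and 5 in WT.

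MMP23A and MMP23B are near-identical neighbours on chromosome 1 that the counting could have split. MMP23A had 5 and 2 counts in KO and 62.5 and 2.5 in WT, and MMP23B had 6.5 and 2 in KO and 37.5 and 7 in WT. WT replicate 1 alone was high in both. CDK11B, whose span covers MMP23A on the other strand, was also highest there, at 390.5 and 483 counts in KO and 856 and 377.5 in WT. Neither MMP23 gene was tested.

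Procollagen N-proteinases, which trim the amino end of fibrillar procollagens, moved in opposite directions. ADAMTS2 (chromosome 5, 178537852 to 178772431, minus strand, hg19), whose loss causes the dermatosparaxis type of Ehlers-Danlos syndrome, was at 9.94 and 10.3 CPM in KO libraries and 116 and 125 CPM in WT libraries. That is 11.9-fold lower, with replicates close to each other in both groups (log2 fold change -3.57, SE 0.08, adjusted p = 3.24e-13). ADAMTS3, its relative that also activates the lymphatic growth factor VEGF-C, was at 39.1 and 41.1 CPM in KO and 30.4 and 32.2 CPM in WT (log2 fold change 0.36, SE 0.08, adjusted p = 0.00147). ADAMTS14 had 5 and 4.5 counts in KO and 6 and 2.5 in WT and was not tested. In CPM per kb, ADAMTS2 was at 1.47 and 1.53 in KO, below ADAMTS3 at 6.09 and 6.41. In WT, ADAMTS2 was at 17.1 and 18.5 CPM per kb, above ADAMTS3 at 4.74 and 5.03.

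**Figure D2:**
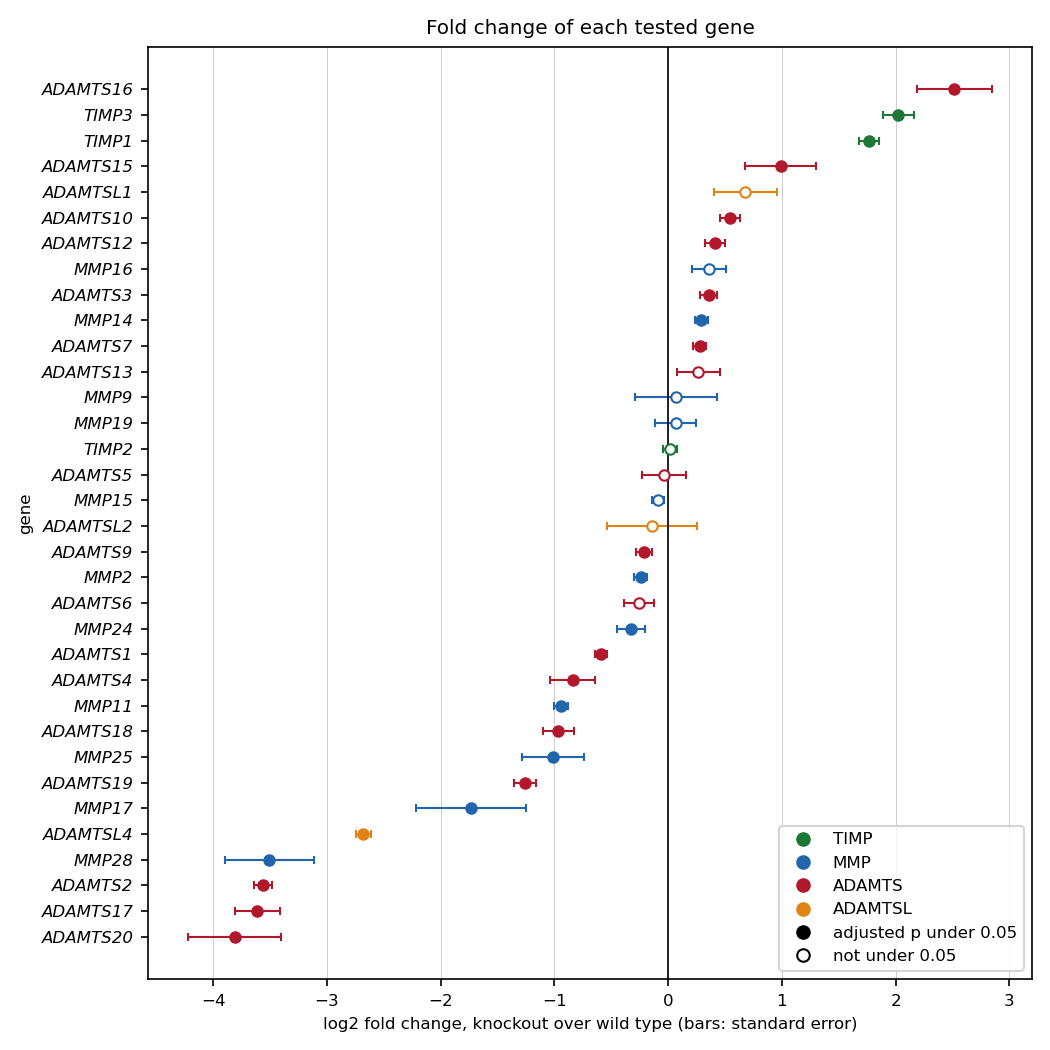
Log2 fold change (KO over WT) of each of the 34 tested genes, ordered from highest to lowest, with bars for the standard error, colours for the families and open circles for genes that did not pass. ADAMTS16, TIMP3 and TIMP1 have the highest values, and ADAMTS20, ADAMTS17, ADAMTS2 and MMP28 the lowest, all below -3.5.

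Proteoglycan-cleaving ADAMTS genes, whose enzymes cut versican and aggrecan, were more often called lower than higher. There were 4 that fell, 1 that rose and 1 that did not pass among 6 tested, where 22.3% of all genes tested were lower. Of the 4 that fell, ADAMTS4, ADAMTS9 and ADAMTS20 each lost their call in at least 1 of 11 alternatives, and ADAMTS1 did not. ADAMTS20, known from melanoblast survival in the mouse, was at 3.12 and 2.31 CPM in KO libraries and 28.8 and 47.1 CPM in WT libraries. The WT libraries differed widely but the groups did not overlap, and the mean was 13.9-fold lower (log2 fold change -3.81 with SE 0.41, adjusted p = 0.0066). The call was lost without KO replicate 1 (adjusted p = 0.149) or KO replicate 2 (0.148), with log2 fold changes of -4.04 and -3.59. Its closest relative ADAMTS9 was at 123 and 146 CPM in KO and 159 and 153 CPM in WT (log2 fold change -0.21, SE 0.07, adjusted p = 0.0379). That small fall lost its call without KO replicate 1 (adjusted p = 0.286), without WT replicate 1 (0.171) or 2 (0.0709), with DESeq2 (0.062), with the replicate block (0.0578) and with upper-quartile scaling (0.0564).

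ADAMTS1, a versican-cleaving enzyme of ovulation and vessels, had the highest level of the ADAMTS genes per kilobase, at 38.3 and 35.3 CPM per kb in KO and 55.2 and 55.3 in WT. In CPM it was at 199 and 183 in KO and 287 in both WT libraries, 1.502-fold lower (log2 fold change -0.59 with SE 0.05, adjusted p = 5.51e-07). ADAMTS4, an aggrecanase, was at 2.79 and 2.98 CPM in KO and 5.65 and 4.68 CPM in WT (log2 fold change -0.84, SE 0.20, adjusted p = 0.00335, and 0.0558 with DESeq2). ADAMTS5, the neighbour of ADAMTS1 on chromosome 21 and the main aggrecanase of mouse cartilage, was at 3.64 and 3.92 CPM in KO and 3.83 and 3.998 CPM in WT. It did not pass (adjusted p = 0.90), so these neighbours were not called alike. ADAMTS15 was at 2.05 and 1.88 CPM in KO and 1.17 and 0.766 CPM in WT (log2 fold change 0.99, SE 0.31, adjusted p = 0.0181). Its call was lost without KO replicate 1 (adjusted p = 0.0936) or 2 (0.0627), without WT replicate 2 (0.152) and with DESeq2 (0.209). ADAMTS8, next to ADAMTS15 on chromosome 11, had 8.5 and 5 counts in KO and 6.5 and 10.5 in WT.

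Genes of the remaining ADAMTS groups are best read by their closest relatives. ADAMTS16, a gene linked to blood pressure in the rat, was at 3.82 and 2.73 CPM in KO libraries and 0.671 and 0.482 CPM in WT libraries, 5.67 times WT (log2 fold change 2.52, SE 0.33, adjusted p = 2.22e-05). It had the highest log2 fold change of the members, from 74.5 and 59.5 counts in KO and 12 and 8.5 in WT. Its relative ADAMTS18, a gene of eye development, was at 21.3 and 15.3 CPM in KO and 34.2 and 37.0 CPM in WT (log2 fold change -0.97, SE 0.14, adjusted p = 0.000399). This pair thus moved in opposite directions, and ADAMTS18, which had the higher level per kilobase in every library, was the one that fell.

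ADAMTS17 (chromosome 15, 100511643 to 100882183, minus strand, hg19) and ADAMTS19 fell together. ADAMTS17, mutated in a Weill-Marchesani-like syndrome of short stature and lens dislocation, was at 1.46 and 1.01 CPM in KO libraries and 15.97 and 13.8 CPM in WT libraries, 12.1-fold lower (log2 fold change -3.61 with SE 0.20, adjusted p = 2.95e-09). ADAMTS19, a gene of heart valves, was at 16.2 and 16.3 CPM in KO and 36.04 and 41.8 CPM in WT (log2 fold change -1.26, SE 0.10, adjusted p = 8.12e-08). ADAMTS19-AS1, which overlaps its end on the other strand, was at 0.589 and 1.05 CPM in KO and 2.10 and 2.24 CPM in WT (adjusted p = 0.00303).

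ADAMTS10 and ADAMTS6 act on fibrillin microfibrils. ADAMTS10, the other Weill-Marchesani gene of the family, was at 29.3 and 27.1 CPM in KO and 19.4 and 19.3 CPM in WT (log2 fold change 0.54, SE 0.09, adjusted p = 0.000235). ADAMTS6 was at 12.2 and 10.4 CPM in KO and 12.6 and 14.4 CPM in WT and did not pass (adjusted p = 0.13). ADAMTS7 and ADAMTS12, which cut cartilage oligomeric matrix protein (COMP), rose together by small amounts. ADAMTS7 was at 140 and 155 CPM in KO and 125 and 119 CPM in WT (log2 fold change 0.28, SE 0.06, adjusted p = 0.00176). ADAMTS12 was at 31.04 and 34.97 CPM in KO and 24.8 CPM in both WT libraries (log2 fold change 0.41, SE 0.09, adjusted p = 0.00152). ADAMTS13, the von Willebrand factor protease of plasma, was at 6.12 and 5.36 CPM in KO and 5.51 and 4.08 CPM in WT (adjusted p = 0.283).

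Among the ADAMTS-like genes, ADAMTSL4 stood apart in level and fell. ADAMTSL4 (chromosome 1, 150521845 to 150533412, plus strand, hg19) encodes a matrix protein that binds fibrillin-1 and is mutated in inherited lens dislocation. It was at 43.9 and 39.2 CPM in KO libraries and 262 and 269 CPM in WT libraries, 6.40-fold lower (log2 fold change -2.68 with SE 0.06, adjusted p = 5.2e-13). In WT it ranked just below MMP11 per kilobase, at 60.8 and 62.3 CPM per kb, with ADAMTS1 next, and in KO it was at 10.2 and 9.08 CPM per kb. ADAMTSL4-AS1, which overlaps it by 42 bases on the other strand, was at 0.743 and 0.687 CPM in KO and 2.10 and 2.35 CPM in WT (adjusted p = 0.000497). ADAMTSL1 was at 1.97 and 2.13 CPM in KO and 1.37 and 1.19 CPM in WT (adjusted p = 0.0622), and ADAMTSL2 at 0.794 and 1.03 CPM in KO and 1.37 and 0.652 CPM in WT (adjusted p = 0.798). ADAMTSL3, with 8.5 and 1.5 counts in KO and 13.5 and 8 in WT, and ADAMTSL5, with at most 3 counts in a library, were not tested.

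**Figure D3:**
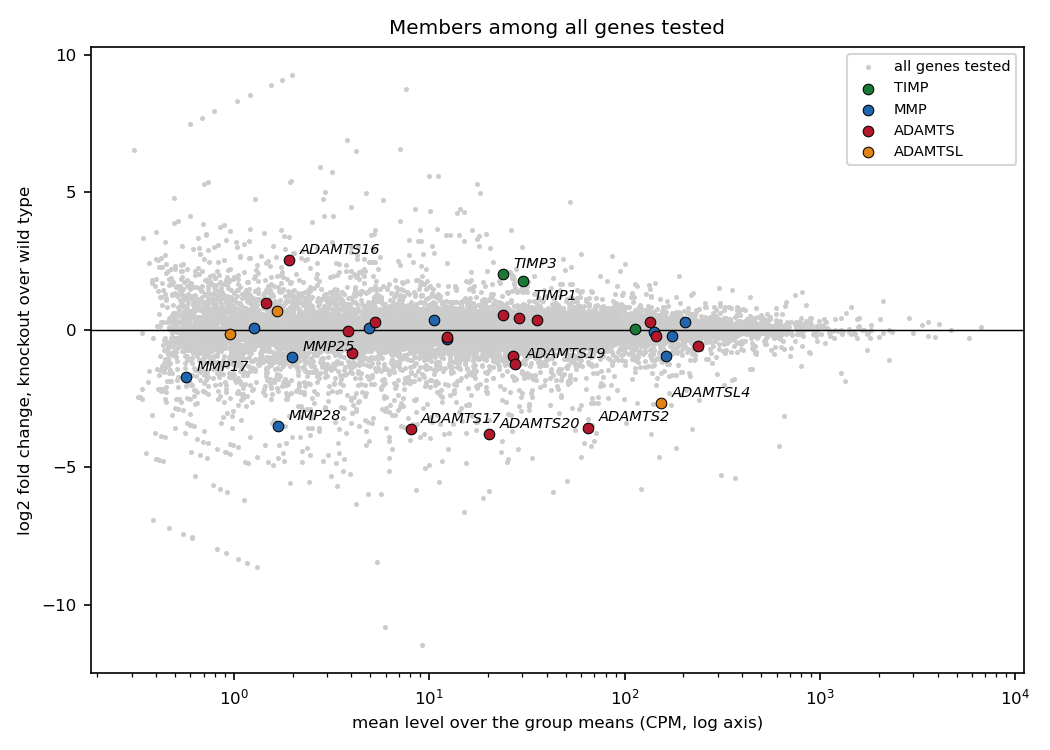
Log2 fold change (KO over WT) against mean level (CPM, log axis) for all genes tested (grey) and the members (coloured by family), with names for members past 1 in either direction. ADAMTS2 and ADAMTSL4 combine a high level with log2 fold changes of -3.57 and -2.68.

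When a log2 fold change of 1 or more was asked for too, 3 members were higher and 8 lower, against 4.49% and 6.77% of all genes tested. Those that were higher were ADAMTS16, TIMP3 and TIMP1. Those that were lower were ADAMTS20, ADAMTS17, ADAMTS2, MMP28, ADAMTSL4, MMP17, ADAMTS19 and MMP25. Both KO libraries were above both WT libraries for 11 of the 34 members tested and below for 17, where all genes gave 36.6% for each.

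Levels per kilobase of transcript were also summed over each family, where single abundant genes carry much of the sum. The 4 TIMP genes came to 79.2 and 85.7 CPM per kb in KO and 46.9 and 43.9 in WT, and without TIMP1 to 38.2 and 40.9 in KO and 34.1 and 31.5 in WT. The MMP genes came to 189 and 193 CPM per kb in KO and 244 and 233 in WT, with MMP23A left out for want of a protein-coding transcript length. Without MMP11 they came to 137 and 147 CPM per kb in KO and 148 and 141 in WT, so that the groups overlapped. The 19 ADAMTS genes came to 110 and 112 CPM per kb in KO and 152 and 156 in WT, and without ADAMTS1 to 72.1 and 76.3 in KO and 97.3 and 101 in WT. The 5 ADAMTSL genes came to 10.7 and 9.63 CPM per kb in KO and 61.4 and 62.8 in WT, nearly all of it ADAMTSL4, without which they came to 0.50 and 0.556 in KO and 0.624 and 0.422 in WT. These sums were not tested and describe transcripts, not enzyme activity.

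**Figure D4:**
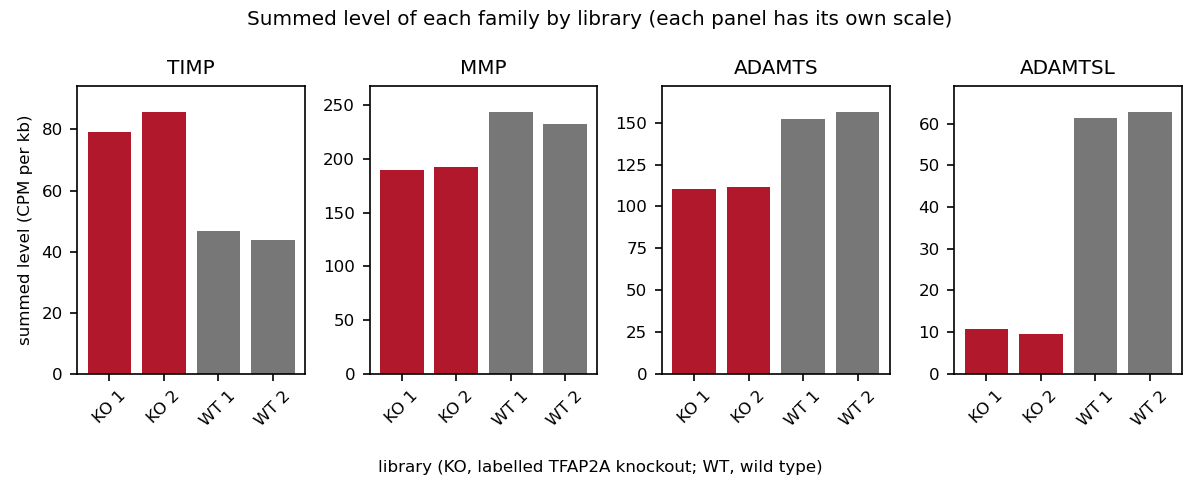
Summed level of each family in each library, in CPM per kb, with red bars for the KO libraries and grey bars for the WT libraries, and a separate scale from 0 in each panel. TIMP bars are taller in KO, at 79.2 and 85.7 against 46.9 and 43.9, and those of the other 3 families are shorter, which for MMP rests on MMP11 and for ADAMTSL on ADAMTSL4.

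Related metalloproteinases outside these families also went both ways. Of 15 ADAM, astacin and pappalysin genes tested (19 listed), 5 rose, 5 fell and 5 did not pass (median log2 fold change 0.09). Among all genes tested, 21.9% were higher and 22.3% lower. The lists here and below were not compared with those shares by a test. ADAM19 was at 79.5 and 86.3 CPM in KO and 31.3 and 30.4 CPM in WT (adjusted p = 1.1e-09), and ADAM22 at 20.4 and 16.3 CPM in KO and 10.8 and 11.1 CPM in WT (adjusted p = 0.000299). PAPPA2, which cuts IGF-binding proteins, was at 1.49 and 1.19 CPM in KO and 10.01 and 13.2 CPM in WT (adjusted p = 2.97e-08). ADAM12, a shedding protease of trophoblast and mesenchyme, was at 18.1 and 15.2 CPM in KO and 68.2 and 81.7 CPM in WT (adjusted p = 5.96e-08).

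Of 16 tested genes that activate, inhibit or clear these proteases, 4 rose, 5 fell and 7 did not pass (median log2 fold change -0.02). All genes tested gave 21.9% higher and 22.3% lower. Of the 7, PLAT (log2 fold change -0.47) did pass with limma-voom (adjusted p = 0.0101). BSG (log2 fold change 0.12) did so with upper-quartile scaling (0.0498). PLAUR, one of the 4 that rose, lost its call with DESeq2 (adjusted p = 0.146). TFPI2, a serine protease inhibitor that protects matrix, was at 30.96 and 26.6 CPM in KO and 1.48 and 1.503 CPM in WT (adjusted p = 4.86e-11). Among the testicans, matrix proteoglycans of the SPOCK family, SPOCK3 was at 9.17 and 7.58 CPM in KO and 1.76 and 1.25 CPM in WT (adjusted p = 4.99e-07). SPOCK2 went the other way, at 1.56 and 0.802 CPM in KO and 21.1 and 26.5 CPM in WT (adjusted p = 1.85e-08). PCSK5, a proprotein convertase of the furin family, was at 7.84 and 8.11 CPM in KO and 124.6 and 137 CPM in WT (adjusted p = 1.54e-13). Of the 2 enzymes that glycosylate thrombospondin repeats, which ADAMTS and ADAMTSL proteins need for secretion, B3GLCT (listed as B3GALTL) was at 25.1 and 23.5 CPM in KO and 12.9 and 12.6 CPM in WT (adjusted p = 4.22e-06). The other, POFUT2, did not pass.

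Of 20 matrix substrates and partners tested (23 listed), 12 fell, 5 rose and 3 did not pass (median log2 fold change -0.36). The shares over all genes tested were 21.9% higher and 22.3% lower. Among the 12, COL3A1 and BGN lost their calls with DESeq2 (adjusted p = 0.078 and 0.113). COL2A1 was at 1229 and 1115 CPM in KO and 475 and 420 CPM in WT (adjusted p = 1.11e-08), and the basement membrane gene NID1 at 84.8 and 87.9 CPM in KO and 41.02 and 39.2 CPM in WT (adjusted p = 6.51e-09). TNC, the tenascin gene, was at 40.05 and 23.2 CPM in KO and 180 and 222 CPM in WT (adjusted p = 0.0373). It no longer passed with either WT library left out (adjusted p = 0.112 for the first and 0.188 for the second) or under the replicate block (0.0573). VWF, whose protein ADAMTS13 cuts, was at 2.51 and 1.58 CPM in KO and 6.85 and 6.78 CPM in WT (adjusted p = 1.75e-05).

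AP-1 and ETS transcription factors and RUNX2 are known regulators of MMP promoters. Among 13 tested, 1 rose, 3 fell and 9 did not pass (median log2 fold change -0.02), where 44.2% of all genes tested were called. Of the 9, ETS1 (log2 fold change -0.45) did pass with limma-voom (adjusted p = 0.0243) and with the replicate block (0.0483). Its log2 fold change was -0.77 without KO replicate 2. That of JUN was 0.28, and 0.49 without KO replicate 1. ETV1 was at 15.7 and 14.5 CPM in KO and 8.36 and 10.4 CPM in WT (adjusted p = 0.000926). ETS2 was at 27.7 and 32.1 CPM in KO and 37.4 and 34.8 CPM in WT (adjusted p = 0.021), and ELK3 at 12.5 and 12.6 CPM in KO and 15.99 and 15.8 CPM in WT (adjusted p = 0.0239). The ELK3 call was lost without any 1 of the 4 libraries (adjusted p = 0.0741 to 0.10) and with DESeq2 (0.183). The ETS2 call was lost without KO replicate 1 (0.182), without WT replicate 1 (0.164), with DESeq2 (0.128) and with the replicate block (0.0574).

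Markers of several cell types moved alongside the members. For the marker counts here and in the next paragraph, the shares over all genes tested were 21.9% higher and 22.3% lower. Of 6 amnion and trophoblast markers, 5 were lower and 1 was higher. Their summed level was 190 to 240 CPM in KO and 1633 to 1758 CPM in WT, with CGA at 0 in KO. Most of the WT sum came from GABRP and VTCN1. GABRP was at 78.3 and 47.0 CPM in KO and 1126 and 1207 CPM in WT (adjusted p = 0.0145, but 0.0879 and 0.124 with WT replicates 1 and 2 left out in turn), and VTCN1 at 19.9 and 15.1 CPM in KO and 344 and 353 CPM in WT. ISL1 was the one that was higher, at 14.3 and 8.36 CPM in KO and 3.33 and 3.49 CPM in WT. Of 6 mesenchyme markers, 4 were lower and 1 higher, summing to 820 to 909 CPM in KO and 1055 to 1066 CPM in WT. PRRX1 was at 6.63 and 7.06 CPM in KO and 43.6 and 37.1 CPM in WT, and DCN at 229.6 and 229.7 CPM in KO and 371 and 384 CPM in WT. LUM was higher, at 71.1 and 79.95 CPM in KO and 51.6 and 66.1 CPM in WT (adjusted p = 0.0465), but not when either KO library (adjusted p = 0.0943 and 0.249) or WT replicate 1 (0.134) was left out or with RLE scaling (0.0509).

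Of 6 endothelium and blood markers, 5 were tested and 4 were lower, summing to 19.1 to 19.9 CPM in KO and 59.9 to 60.3 CPM in WT, with PECAM1 at 0 in all 4 libraries. CDH5 was at 0.333 and 0.596 CPM in KO and 11.02 and 12.8 CPM in WT, and KDR at 1.66 and 2.89 CPM in KO and 16.5 and 16.4 CPM in WT. Of 4 neural crest markers, the 2 tested, PAX7 and NGFR, were lower, and the list summed to 3.05 to 3.97 CPM in KO and 9.58 to 12.1 CPM in WT. NGFR was at 3.12 and 2.52 CPM in KO and 6.82 and 5.73 CPM in WT. SOX10 had at most 4 counts in a library and FOXD3 was at 0 in all but WT replicate 1. All 3 neural ectoderm markers were higher, summing to 37.9 to 60.4 CPM in KO and 13.7 to 14.04 CPM in WT. SOX2 was at 51.8 and 31.4 CPM in KO and 11.7 and 10.9 CPM in WT (adjusted p = 0.0399), and lost its call without the filter on low counts (0.0881) and without WT replicate 1 (0.114) or 2 (0.248). PAX6 was at 7.30 and 5.75 CPM in KO and 2.29 and 2.67 CPM in WT. Of the 7 surface ectoderm markers, 4 were lower and 0 higher, summing to 1792 to 1855 CPM in KO and 2298 to 2481 CPM in WT. TFAP2C is one of them, and CDH1 was at 247 and 220 CPM in KO and 394 and 453 CPM in WT. Of 2 pluripotency markers, 1 was tested and did not pass, and they summed to 0.64 to 0.917 CPM in KO and 0.624 to 0.867 CPM in WT. The part of these cell types in the levels of the TIMP, MMP and ADAMTS genes was not tested.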

How the data were processed

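The authors deposited 1 table of estimated counts per gene, and per the submitters' processing notes TopHat, HOMER and DESeq2 were used with build hg38. The sources used here give no versions, counting settings, annotation or use of strand. Deposited values are multiples of 0.5, which the count models took after rounding to whole numbers. Gene positions are printed as hg19, because just 2 of the 52 members start no more than 2000 bp from where GRCh38 has them, and 42 rows lie on contigs named as in hg19. Groups follow the genotype label.

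Genes passing filterByExpr were scaled by TMM and tested with edgeR 4.0.16 (glmQLFit, robust, and glmQLFTest, genotype alone, R 4.3.3), with Benjamini-Hochberg adjustment. The SE is the size of the log2 fold change over the square root of F. Alternatives used DESeq2 1.42.0, limma-voom (limma 3.58.1), other scaling, no filter, rounding down, a replicate block and each library left out. CPM uses the deposited counts and TMM-adjusted library sizes. CPM per kb divides by the longest protein-coding GENCODE v29 transcript. Chi-square over its degrees of freedom between replicates was 4.16 in KO and 4.31 in WT, more than sampling noise gives. Same-numbered libraries did not deviate together (correlation -0.05 over genes). Floors cover counting error only. The fit was also run on counts simulated from its own dispersions and the WT means. That cannot show whether its model suits these libraries.

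The members and lists were chosen with earlier results of these data known. All members are accounted for. From the other lists, up to 2 genes that rose and 2 that fell most, with a group mean of 5 CPM or more, were named. The markers in the opening, CGA, PECAM1, PAX7, SOX10, FOXD3, POFUT2, ETS1, JUN, PLAT, BSG, PLAUR, COL3A1, BGN and the genes that overlap members fall outside that rule. They were chosen after their values were seen.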

Additional observations from a re-analysis of the deposited data

How the results depend on the processing

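Over 11 alternatives, 20 of the 34 tested members kept their side of the threshold and their direction in all, 8 lost a call in at least 1 (ADAMTS4, ADAMTS9, ADAMTS15, ADAMTS20, MMP2, MMP17, MMP24 and MMP25) and MMP16 gained one. Only members that did not pass changed sign, each with 1 library left out. Their log2 fold changes then ranged from -0.093 to 0.024 for ADAMTS5 (reversed without KO replicate 1), -0.55 to 0.42 for ADAMTSL2 (without WT replicate 1), -0.42 to 0.41 for MMP9 (-0.42 without KO replicate 2, -0.19 without WT replicate 1), -0.069 to 0.19 for MMP19 (without KO replicate 2) and -0.039 to 0.074 for TIMP2 (-0.039 without KO replicate 2, -0.029 without WT replicate 2). With 1 library left out, a group has 1 library, which is assumed to vary like the other group; members higher then came to 8 to 9 and lower to 10 to 15, and all genes to 2535 to 2922 higher and 2697 to 2919 lower, against 3427 and 3492. DESeq2 called 2262 genes higher and 2435 lower, and 8 members higher and 11 lower. The cause of these smaller counts was not tested. A log2 fold change of at least 1 left 703 and 1059 genes and 3 and 8 members by construction. The replicate block gave 3050 and 3154 genes and 9 and 13 members; the libraries share only a number, and no label pairs them. No scaling moved the median of all genes by more than 0.0146. Genes under the low-count filter, such as TIMP4, are limited by depth. The MMP23 pair also fell under it, but with WT replicate 1 far above WT replicate 2 (62.5 and 2.5 counts for MMP23A, 37.5 and 7 for MMP23B).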
